A study of Sorghum bicolor with 9 samples.

Results

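The transcripts described here are the 734 long non-coding RNA (lncRNA) transcripts of sorghum leaf whose deposited name joins a gene identifier to the suffix IT and a number, out of 11928 lncRNA transcripts in all. They lie in 617 genes, called host genes, of the 34366 genes in the mRNA table. Members were found by name alone, without use of a measured value, though earlier results of these data were known when they were chosen. Leaves of Sorghum bicolor, a C4 cereal of dry regions, were sampled at 3 water levels: the control under normal water supply (CK), a mild drought stress named DR1, and a severe one named DR2. Each level had 3 libraries, made with strand-specific chemistry from total RNA. The labels give no cultivar, plant age or length of treatment, and leave unsaid if separate plants gave the libraries, so p-values measure only the spread between these libraries, which may be technical.

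Long non-coding RNAs are transcripts without a recognised protein-coding sequence, and many plant genes carry such transcripts inside their own borders, in introns or on the opposite strand. In naming systems used for other species the suffix IT marks an intronic transcript, but the labels here do not define it. RNA from inside a gene can come from a separate transcription unit or from the unspliced precursor of the host messenger RNA, and which of these applies was not tested. Host counts were therefore taken after removal of the counts of all lncRNA transcripts that carry the host's identifier.

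By position, each of the 734 transcripts lay within the deposited borders of its host. Spans ran from 201 to 10305 bp with a median of 379.5 bp, and 615 were shorter than 1000 bp. Host genes spanned a median of 7084 bp, against 2917 bp over the mRNA table. A single transcript was found in 538 hosts, while 79 hosts held more than 1 and together accounted for 196 transcripts. Only 4 transcripts touched another gene of the mRNA table and 33 touched another lncRNA transcript. The tables give no strand, exons or untranslated regions and name no genome build, so whether a transcript sits in an intron or an exon of its host was not examined.

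The ratio of count to FPKM (fragments per kilobase of transcript, scaled to library depth) gives the transcript length that the authors' scaling used, up to a factor per library. That factor was set here so that transcripts with spans under 1000 bp had a median share of length to span of 1.00. The median share of 1.00 over 342 such transcripts was thus fixed in advance, and in 1 of them the length was under 0.5 of the span. Among 62 transcripts with spans of 2000 bp or more, 43 had a length under 0.5 of the span, with a median share of 0.239. Relative to their span, most long members were scaled to a smaller length than the short ones. Whether members were scaled as spliced or unspliced units was not tested. The IT transcript of the nitrate-response regulator NLP3 (SORBI_3003G003600-IT1, chromosome 3, 349928 to 355821) was scaled to a share of 0.0784 of its 5894 bp, whereas that of the GMI1 gene (SORBI_3004G132100-IT1, chromosome 4, 19671259 to 19674990) was scaled to 0.993 of its 3732 bp.

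The gene table held 27854146 to 41228478 counts per library. Control 2 and mild drought 2 stood apart in the number of features with a count: 623 and 628 IT transcripts against 494 to 565 in the other 7 libraries, 6712 and 5690 lncRNA transcripts named LINC against 2726 to 4873, and 29760 and 28676 genes against 22337 to 25066. Of the leaf markers, the summed level of 10 mesophyll genes (phosphoenolpyruvate carboxylase and pyruvate phosphate dikinase) was 16101 to 67619 CPM (counts scaled to a common effective library size), with severe drought at 37098 or more and the control at 33431 or less, and that of 10 bundle-sheath genes 2550.4 to 4545 CPM; the part of leaf cell types in the results was not tested. The 39 root and other-organ genes, of which 3 had no count, summed to 34.7 to 151 CPM, and 3 genes of the guard-cell lineage to at most 1.42 CPM. In whole leaves, fewer cells of a type and less RNA per cell cannot be told apart.

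Most IT transcripts were rare. The median of the mean level was 0.225 CPM, 96 transcripts reached 1 CPM and 7 reached 10 CPM. A count was present in all 9 libraries for 294 transcripts and in 1 library for 39. In severe drought 494 to 528 IT transcripts had a count, below the 529 to 623 of the control (exact permutation test, two-sided, p = 0.1, n = 3 and 3) and the 536 to 628 of mild drought (p = 0.1, exact). With 3 libraries against 3 this test cannot go below 0.10, and severe drought 2 and 3 were among the 3 libraries with the smallest gene-table totals; the part of depth in this difference was not tested.

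The pool was dominated by a pair of transcripts. SORBI_3008G134300-IT1 (TCONS_00086487, chromosome 8, 56275709 to 56276396, 688 bp) lies in a gene for a leucine-rich repeat receptor-like kinase, a class of membrane proteins that perceive external signals. It held 55.2% of all IT counts. SORBI_3001G440900-IT1 (TCONS_00006245, chromosome 1, 71887361 to 71887642, 282 bp) lies in the gene for SmD3b, a core protein of the spliceosomal small nuclear ribonucleoproteins, and held 29.8%. The other 732 transcripts shared the remaining counts.

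The receptor kinase transcript stood at 1034, 1377 and 1138 CPM under normal water, at 2461, 621 and 1270 under mild drought and at 4599, 2034 and 1874 under severe drought. All severe drought libraries thus lay above all controls, while the mild drought libraries spread on both sides of them, and severe drought 1 held the highest value. Group means were 1183 ± 176, 1451 ± 933 and 2835 ± 1529 CPM (SD, n = 3). Severe drought was 2.40 times the control (p = 0.1, exact permutation test, the smallest value possible), and mild drought 1.23 times (p = 0.8, exact). In the fit across all lncRNA transcripts the log2 difference of severe drought to control was 1.26 ± 0.55 (SE), with an edgeR quasi-likelihood adjusted p of 0.998.

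The host of that transcript had its own course of values. After subtraction the receptor kinase gene (SORBI_3008G134300, chromosome 8, 56269822 to 56285958) had 334, 305 and 497 counts in the control, 252, 462 and 254 in mild drought and 176, 187 and 196 in severe drought. Scaled to depth these were 9.19 ± 1.80, 8.24 ± 1.22 and 6.97 ± 1.64 CPM, and severe drought overlapped the control. The host was at its lowest mean where its transcript was at its highest. For the host, the log2 difference of severe drought to control was -0.40 ± 0.26 (edgeR unadjusted p = 0.161, adjusted p = 0.728). The difference between the changes of transcript and host in severe drought was 1.54 ± 0.72 on the log2 scale, and the interaction test of edgeR gave an unadjusted p of 0.0613 and an adjusted p of 0.987.

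The SmD3b transcript stood at 661, 1070 and 426 CPM under normal water, at 1172, 463 and 1418 under mild drought and at 878, 1574 and 1578 under severe drought. These ranges overlapped in every comparison. Severe drought was 1.87 times the control (p = 0.2, exact) and mild drought 1.42 times (p = 0.4, exact). The host gene itself (SORBI_3001G440900, chromosome 1, 71884278 to 71888543) kept 44 to 132 counts per library, or 2.43 ± 0.50 CPM in the control and 1.99 ± 0.27 CPM in severe drought.

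**Figure D1:**
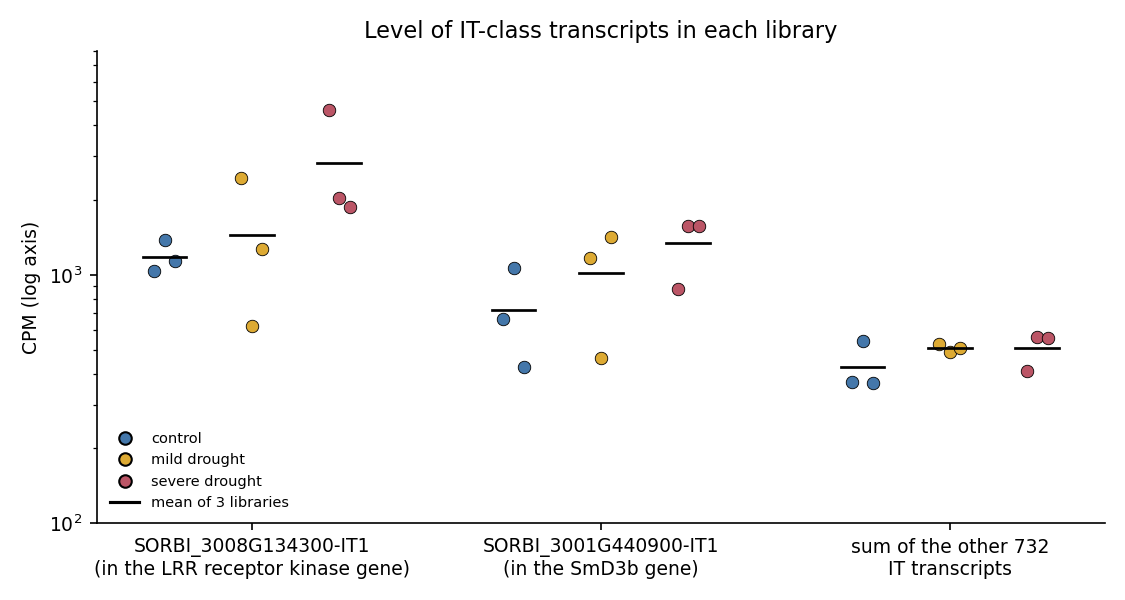
CPM (log axis) of the IT transcripts in the receptor kinase and SmD3b genes and of the summed other 732 IT transcripts, 1 point per library, with a bar at the mean of the 3 libraries of a group. The receptor kinase transcript reached 4599 CPM in severe drought 1, while the sum of the other 732 stayed between 367 and 560 CPM in all libraries.

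Because of this pair the share of the whole class followed them. IT transcripts took 0.230%, 0.308% and 0.209% of gene-table counts in the control, 0.447%, 0.192% and 0.301% in mild drought and 0.562%, 0.335% and 0.340% in severe drought. The widest 95% Wilson interval, for severe drought 1, ran from 0.560% to 0.565%; such intervals cover counting error only. Severe drought exceeded the control in all 3 libraries (means 0.412% ± 0.130 and 0.249% ± 0.0519, p = 0.1, exact). Without the 2 most abundant transcripts the means were 0.0437% and 0.0456%, a ratio of 0.960 (p = 0.8, exact). Per 100 counts of their hosts, IT transcripts had 30.3 ± 4.85 counts in the control, 34.8 ± 16.2 in mild drought and 54.1 ± 16.3 in severe drought. Without the pair these ratios of summed counts were 5.55, 5.93 and 5.77. The median ratio over 88 single pairs with at least 10 counts on both sides in every library was higher, at 15.7 ± 1.33, 17.5 ± 0.532 and 17.4 ± 2.54 per 100.

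Below the dominant pair the order of levels was less clear. In rank order, the 12 most abundant transcripts ran from the receptor kinase transcript to that of a receptor-like cytoplasmic kinase, and each overlapped its next neighbour in range over the 9 libraries except at the step from the SmD3b transcript (426 to 1578 CPM) to the next one (15.3 to 119 CPM). The next one, SORBI_3004G313200-IT1 (398 bp, chromosome 4, 64996321 to 64996718), lies in a gene for a glucan endo-1,3-beta-glucosidase, an enzyme that cleaves callose-type glucans, and averaged 44.6 CPM. A transcript of 235 bp in the phospholipid-transporting ATPase 2 gene, for a lipid flippase, followed at 22.4 CPM (SORBI_3006G040500-IT2), with 4.97 CPM in control 3 and 61.4 CPM in severe drought 2. Those hosts were abundant themselves, at 1005 ± 275 and 576 ± 262 CPM in the control.

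Other abundant members differed from these in having a nearly silent host. GMI1, a DNA repair protein known from Arabidopsis, had 8 to 32 counts per library in its own gene (SORBI_3004G132100) and 380 to 634 in IT1. That transcript was also one of the steadiest, with 13.7 ± 4.19, 13.5 ± 2.23 and 14.5 ± 2.99 CPM in control, mild and severe drought. SORBI_3008G091100, which has no protein name, had 0 to 32 counts against 195 to 516 in its IT2, a transcript that touches a pair of other lncRNA transcripts. By contrast, IT transcripts in the genes of the chromatin reader MBD9 (SORBI_3004G075700-IT1, 10.6 CPM), the splicing helicase DEAH7 (SORBI_3002G313400-IT1, 8.72 CPM) and the DENN domain protein SCD1 (SORBI_3003G195900-IT1, 8.15 CPM) lay in hosts with 34.5 to 68.8 CPM in the control.

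Subtraction changed what the deposited host values measure. The deposited host FPKM contained that of the lncRNA transcripts: in none of 5553 values was the host below the sum of its lncRNA transcripts, and in the 8 hosts with no remaining count the sums were equal. The SmD3b gene had a mean deposited FPKM of 3293, which ranked 19th in the mRNA table, and 2.07 without its transcript, which ranked 14270th. The receptor kinase gene went from 2427 (rank 29) to 5.06 (rank 10262). IT transcripts took a median of 8.83% of the host's gene-table count but 31.8% of its FPKM, since short transcripts weigh more per length; they took over 50% of the count in 68 hosts and of the FPKM in 154. In mean FPKM, a level per length, 180 IT transcripts stood above what remained of their host.

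**Figure D2:**
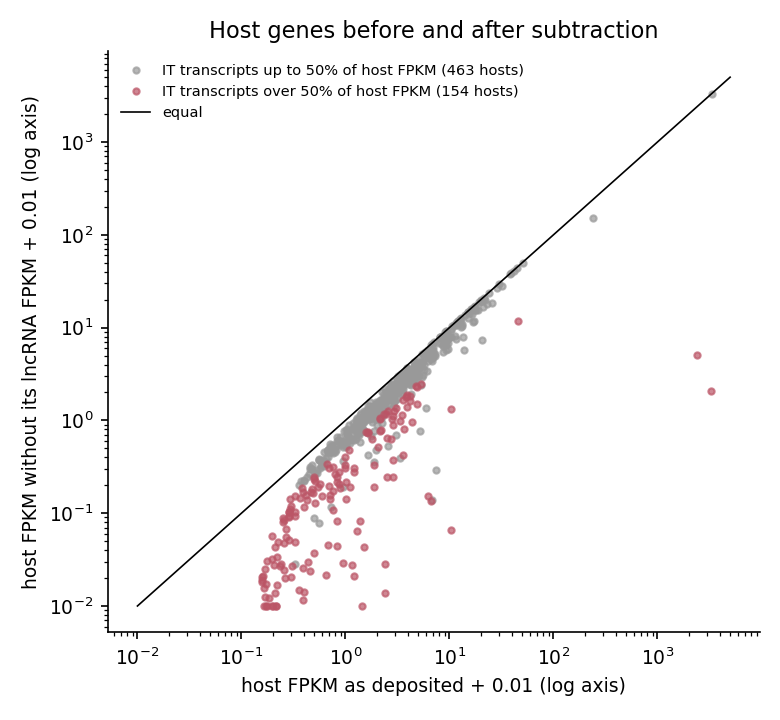
Mean FPKM over 9 libraries of the 617 host genes as deposited (x) and after subtraction of the FPKM of their lncRNA transcripts (y), both with 0.01 added on log axes; the line marks equality. In 154 hosts, drawn in red, IT transcripts took over 50% of the deposited FPKM, and the 2 red points farthest right are the SmD3b and receptor kinase genes.

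The direction of a host could turn with the subtraction. Among 537 hosts tested both ways, the sign of the log2 difference was opposite in 56 for mild drought and in 51 for severe drought, each against control, and in 40 between the drought levels. In severe drought against control the receptor kinase gene SORBI_3008G134300 had a log2 difference of 1.25 with the deposited counts and -0.40 after subtraction, and the SmD3b gene SORBI_3001G440900 had 0.90 and -0.29. The gene SORBI_3006G107700, for MADS-box transcription factor 27, of a family of developmental regulators, had -0.62 and -2.41. A further 32 hosts passed the filter on low counts only with their IT counts left in.

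Mild drought was set against the control to ask which IT transcripts and hosts differ when water is moderately short. More IT transcripts had higher than lower values. Among the higher were IT3 of the achilleol B synthase gene, IT2 of protein arginine methyltransferase 3 and IT1 of the nucleoporin GP210. These were at 3.14 to 5.42 times the control. No IT transcript passed the test across all lncRNA transcripts. Of 373 IT transcripts that passed the filter on low counts, 247 (66.2%) had a positive log2 difference, with a median of 0.27, beside 56.5% and 0.12 over all 4903 lncRNA transcripts tested. The size of this difference depended on single libraries: without mild drought 1 the median of IT transcripts was 0.14 (244 of 418 positive) and that of all 0.04, and without control 2 they were 0.47 and 0.34. Scaling within the lncRNA table moved the median of all to 0.00 and that of IT transcripts to 0.14, with 232 of 393 positive.

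All 3 mild drought libraries lay above all 3 controls for 37 IT transcripts (background 6.77% of lncRNA transcripts) and below them for 2 (background 4.45%). The 2 lower ones were those in the tocopherol cyclase gene (SORBI_3004G125800-IT1) and in a gene without a protein name (SORBI_3006G105400-IT2). The 37 were 9.92% of the IT transcripts tested, and the 2 were 0.536%. With the scaling of the lncRNA table the numbers were 27 and 11, against 5.24% and 5.79% of all. The edgeR quasi-likelihood F test called 0 IT transcripts at an adjusted p under 0.05 (background 0%), and DESeq2 also called 0 (background 0.224%). At an unadjusted edgeR p under 0.05 there were 15 (4.02%, beside 3.18% of all lncRNA transcripts).

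Of transcripts with a mean of at least 1 CPM, the smallest p for a higher value was in the gene SORBI_3002G142300 (chromosome 2, 23280102 to 23315614), named for achilleol B synthase, an oxidosqualene cyclase of triterpene synthesis described in rice. Its IT3 (TCONS_00031550, 23298258 to 23300316) had 8, 19 and 13 counts in the control and 63, 55 and 81 in mild drought. No library overlapped, and the log2 difference was 2.44 ± 0.74 (unadjusted p = 0.00932, edgeR adjusted p = 0.999). The IT transcript of the GP210 gene, for a protein of the nuclear pore, had 24, 13 and 27 counts in the control and 70, 49 and 57 in mild drought (SORBI_3002G132600-IT1, log2 1.65 ± 0.63). IT2 of the arginine methyltransferase gene had 35, 24 and 36 counts against 43, 115 and 115 (SORBI_3002G145300-IT2, log2 1.68 ± 0.61), again without overlap once scaled to depth.

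Of the 6 with the smallest p in the lower direction, the transcript in a galactoside 2-alpha-L-fucosyltransferase gene, for an enzyme that decorates cell-wall xyloglucan, had 380, 615 and 71 counts in the control and 153, 6 and 101 in mild drought (SORBI_3004G125100-IT1, log2 -1.86 ± 1.19). The groups overlapped there. Its host had 340, 481 and 44 counts in the control, so transcript and host shared the low control library. The smallest unadjusted p of the 6 was 0.151.

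Among 537 hosts tested, 317 (59.0%) had a positive difference with a median of 0.08, beside 52.3% and 0.02 over all genes. Without mild drought 2 the direction turned, with 265 of 546 hosts positive and a median of -0.02, beside -0.04 over all genes. Without both control 2 and mild drought 2 the median was 0.01 for hosts and -0.01 over all genes. Groups did not overlap for 28 higher hosts (background 6.06% of genes) and 29 lower ones (background 6.41%). EdgeR called 0 (background 0%), with 27 at an unadjusted p under 0.05 (5.03%, beside 6.39% of genes). DESeq2 called 4 (background 0.94%), named here after their values were seen. The host with the smallest p was that of delta-1-pyrroline-5-carboxylate synthase 1 (SORBI_3009G160100), which makes proline from glutamate: it had 1365, 937 and 1293 counts in the control and 3030, 3708 and 3687 in mild drought (log2 1.70 ± 0.26, edgeR adjusted p = 0.306, DESeq2 adjusted p = 9.36e-06). Its IT transcript had only 3, 12 and 3 counts in the control and 17, 4 and 11 in mild drought, which overlapped. The other 3 were the GP210 gene (log2 0.78), the gene of ROOT HAIR DEFECTIVE 3 homolog 2, of a family that shapes the endoplasmic reticulum (SORBI_3005G165800, log2 1.67), and SORBI_3005G153000 without a protein name (log2 1.78).

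Severe drought was then set against the control, to ask which members differ when water is very short. Among IT transcripts with a mean of at least 1 CPM, the 2 with the smallest p and the largest differences lay in the achilleol B synthase gene, with log2 differences of 4.63 ± 1.18 for IT2 and 3.26 ± 0.77 for IT3. Leaving out each library in turn gave 3.81 to 5.47 for IT2, whose controls held 2, 7 and 3 counts, and 2.42 to 3.78 for IT3, lowest without severe drought 3 and highest without control 2. Elsewhere directions were mixed: 201 of 373 IT transcripts (53.9%) had a positive difference, with a median of 0.06 beside 0.12 over all lncRNA transcripts, and the scaling of the lncRNA table turned the median of IT transcripts to -0.14 and that of all to -0.07. The median of IT transcripts was also -0.01 without control 1, -0.01 without severe drought 1 and -0.07 without severe drought 3, and 0.12 without control 2. Groups did not overlap for 19 higher (background 7.1%) and 27 lower IT transcripts (background 5.67%), or 5.09% and 7.24% of those tested. With the scaling of the lncRNA table these were 14 and 40, beside 5.12% and 8.36% of all. EdgeR called 0 IT transcripts (background 0.0204%), with 15 at an unadjusted p under 0.05 (4.02%, beside 4.71% of all). DESeq2 called 2 (background 0.836%), both in the achilleol B synthase gene.

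In that gene, IT3 had 58, 50 and 146 counts in severe drought against 8, 19 and 13 in the control. IT2 (TCONS_00031549, 23294771 to 23295857) had 62, 30 and 117 against 2, 7 and 3, and in mild drought 3, 20 and 41. IT1 (23291049 to 23291386, 338 bp) had 10, 6 and 10 against 1, 0 and 0. All severe drought libraries lay above all controls in these 3, whereas IT4 had at most 11 counts in any library and 0 in the controls.

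The differences of IT3 and IT2 both had an edgeR adjusted p of 0.631, and DESeq2 adjusted p of 0.00669 and 0.0068. What remained of the host had 63, 93 and 95 counts in the control, 242, 176 and 324 in mild drought and 340, 203 and 513 in severe drought. Host levels were 2.09 ± 0.64, 7.07 ± 3.85 and 13.3 ± 7.40 CPM, so host and transcripts were higher together in the severe drought libraries (host log2 2.67 ± 0.54, edgeR adjusted p = 0.292, DESeq2 adjusted p = 0.000411). The interaction test of the transcript's change against the host's gave 0.56 ± 0.50 for IT3 and 2.00 ± 0.89 for IT2 (unadjusted p = 0.285 and 0.0524, edgeR adjusted p = 0.987 for both).

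**Figure D3:**
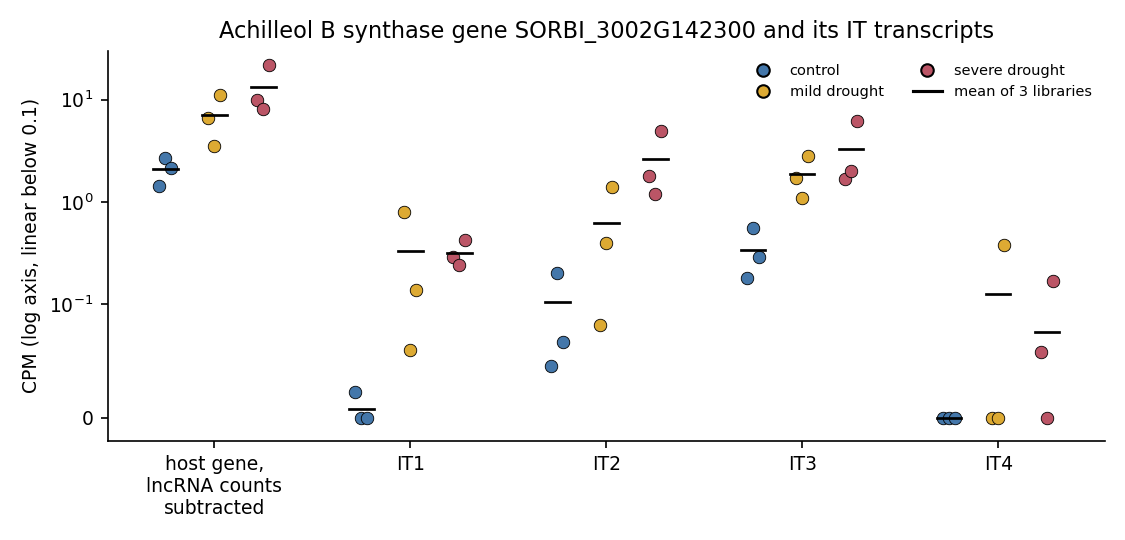
CPM (log axis, linear below 0.1) of the achilleol B synthase gene after subtraction and of its transcripts IT1 to IT4, 1 point per library, with a bar at the mean of the 3 libraries of a group. For the host, IT1, IT2 and IT3 the severe drought libraries lie above the controls, and IT4 is at 0 in all controls.

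Next in the order of p came SORBI_3002G109000-IT1, in a gene with a tetratricopeptide repeat domain. It had 107, 130 and 146 counts in the control, 267, 248 and 257 in mild drought and 210, 186 and 217 in severe drought. Both drought groups lay above the control, at 7.0 ± 1.97 and 7.58 ± 1.54 CPM against 3.16 ± 0.68, and its host had a log2 difference of 0.19 ± 0.29 in severe drought. The interaction test of transcript against host gave 1.09 ± 0.54 there (unadjusted p = 0.0747, edgeR adjusted p = 0.987), so unequal change was not shown. Both comparisons use the same controls. Transcripts in the genes of retinoblastoma-related protein 2, a repressor of cell division (SORBI_3005G138300-IT2, log2 1.23 ± 0.50), and of ROS1A, a DNA glycosylase that removes methylated cytosine (SORBI_3004G149800-IT1, log2 1.74 ± 0.73), had an edgeR adjusted p of 0.998.

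Lower values were led by SORBI_3009G152120-IT2, in a gene without a protein name, with 95, 44 and 157 counts in the control and 7, 28 and 18 in severe drought (log2 -1.74 ± 0.72). Its host was lower as well, at 2.17 ± 1.37 against 4.71 ± 0.33 CPM. In the gene of the helicase DEAH11 the transcript had 112, 87 and 98 counts in the control, 94, 192 and 116 in mild drought and 55, 25 and 32 in severe drought (SORBI_3002G378900-IT1). It was below all libraries of the other groups in severe drought, while its host stayed between 21.2 and 22.6 CPM in all group means. The IT transcript of CURVATURE THYLAKOID 1A, a protein that bends thylakoid membranes, had 49, 48 and 44 counts against 32, 14 and 9 (SORBI_3007G134100-IT1, log2 -0.89 ± 0.56, edgeR adjusted p = 0.998).

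Of the hosts, 234 of 537 had a positive difference in severe drought against control, with a median of -0.08 beside -0.02 over all 21908 genes. Groups did not overlap for 29 higher (background 7.56%) and 54 lower hosts (background 9.77%). EdgeR called 0 (background 0%), with 39 at an unadjusted p under 0.05 (7.26%, beside 8.64% of genes). DESeq2 called 7 (background 1.52%), named after their values were seen. Besides the achilleol B synthase gene, higher values were found for the sodium/calcium exchanger NCL2 (SORBI_3004G108100, 0, 6 and 20 counts against 95, 56 and 42), SORBI_3005G153000 and SORBI_3005G037300. In the last of these severe drought 1 alone held 1147 counts, against 6 and 60 in the other 2 libraries, so its value rests on that library. Lower values were found for EXPORTIN 1A, a carrier out of the nucleus (SORBI_3002G114900, log2 -0.84), for a chloroplast membrane insertase of the ALBINO3 family (SORBI_3001G015500, log2 -1.36) and for SORBI_3005G158901, with 8, 18 and 15 counts in the control and 0 in each severe drought library, where the floor is 3 counts per library.

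Severe drought was last set against mild drought, to ask what differs between the drought levels. Fewer IT transcripts had higher values, 133 of 373 (35.7%) with a median of -0.26, beside 49.3% and -0.01 over all lncRNA transcripts. The median of IT transcripts was -0.16 without mild drought 1 and -0.50 without severe drought 3. Of the hosts, 181 of 537 were positive, with a median of -0.15 beside -0.03 over all genes. Without mild drought 2 these were 240 of 546, -0.08 and 0.02. Groups did not overlap for 9 higher (background 4.28%) and 20 lower IT transcripts (background 5.04%), or 2.41% and 5.36%, and for 10 higher (background 2.92%) and 48 lower hosts (background 4.66%). EdgeR called 0 IT transcripts (background 0.0816%) and 0 hosts (background 0%). At an unadjusted edgeR p under 0.05 there were 11 IT transcripts (2.95%, beside 3.65% of all) and 28 hosts (5.21%, beside 3.56% of genes). DESeq2 called 0 IT transcripts (background 0.489%) and 3 hosts (background 0.142%).

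The IT transcript with the smallest p and a higher value was that in the gene of a fasciclin-like arabinogalactan protein, a cell-wall glycoprotein (SORBI_3002G039800-IT1), with 9, 53 and 6 counts in mild drought and 64, 81 and 36 in severe drought (log2 2.12 ± 0.89). The DEAH11 transcript named above led the lower ones (log2 -1.38 ± 0.46), followed by those of CURVATURE THYLAKOID 1A (log2 -1.30 ± 0.56) and protein arginine methyltransferase 3 (log2 -1.30 ± 0.60). All had an edgeR adjusted p of 0.998. The 3 hosts called by DESeq2 were SORBI_3005G037300, SORBI_3005G158901 and the gene of ATM, a kinase of the DNA damage response (SORBI_3003G103701), which had 637, 843 and 375 counts in mild drought and 268, 195 and 220 in severe drought (log2 -0.91).

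**Figure D4:**
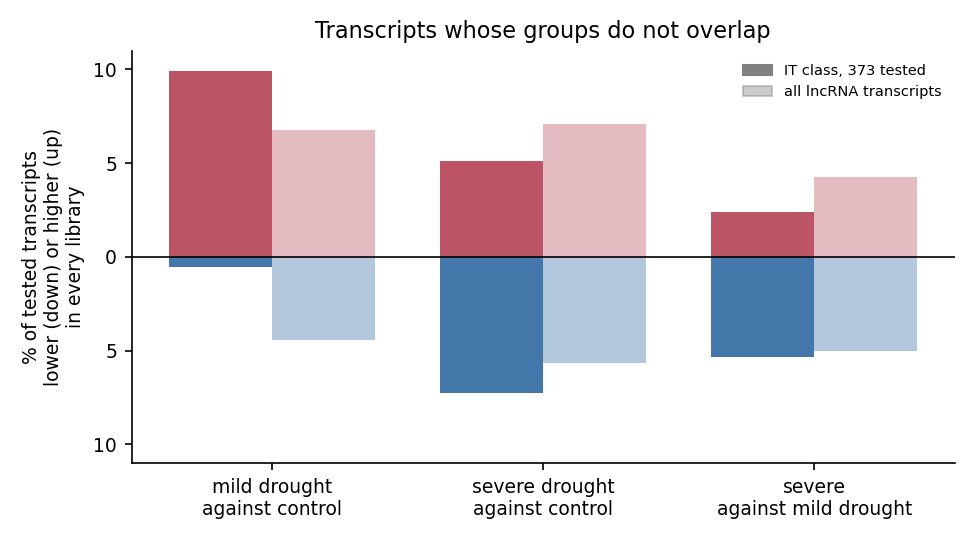
Percent of tested transcripts for which every library of the first group lay above (red, upward) or below (blue, downward) every library of the other, for IT transcripts (dark) and all lncRNA transcripts (pale) in the 3 comparisons. For mild drought against control 9.92% of IT transcripts were higher and 0.536% lower, beside 6.77% and 4.45% of all. With the scaling of the lncRNA table the lower share became 11 of 373, beside 5.79% of all.

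Whether a transcript and its host changed by different amounts was tested for 350 pairs in which both passed the filter, in a fit over 2150 pairs of any name class. EdgeR called 0 IT pairs in each of the 3 comparisons (background 0%, 0.14% and 0.14%), and limma on log2 ratios also called 0. At an unadjusted edgeR p under 0.05 there were 5, 13 and 9 IT pairs. These were 1.43%, 3.71% and 2.57%, beside 3.02%, 4% and 3.16% of all pairs. In mild drought against control the smallest p was that of the transcript in a gene for cleavage and polyadenylation specificity factor subunit 3-II, of messenger RNA 3' end formation (SORBI_3003G222000-IT1). It had 9, 8 and 10 counts in the control and 64, 24 and 25 in mild drought, while its host had 227, 152 and 160 against 230, 182 and 92 (interaction log2 2.07 ± 0.66, unadjusted p = 0.0125, adjusted p = 0.998).

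In severe drought against control the transcript of NLP3 had 26, 23 and 23 counts in the control and 10, 7 and 10 in severe drought, while its host went from 150 ± 24.1 to 198 ± 19.3 CPM (interaction log2 -1.26 ± 0.46, unadjusted p = 0.0243, adjusted p = 0.987). Between severe and mild drought the smallest p of any IT pair was that of the gene for AMSH-like ubiquitin thioesterase 3, a deubiquitinating enzyme (SORBI_3003G173600-IT2). The transcript had 2, 2 and 8 counts in mild drought and 19, 22 and 37 in severe drought. Its host had 4159, 4736 and 4100 counts against 3560, 3193 and 2981. Scaled to depth, the log2 difference of the host was 0.04 ± 0.20. The edgeR interaction log2 was 3.21 ± 0.75 (unadjusted p = 0.00212, adjusted p = 0.760). The tocopherol cyclase transcript, in a gene of vitamin E synthesis, had 0, 7 and 3 counts in mild drought against 25, 28 and 10 in the control and 13, 20 and 20 in severe drought, with its host at 66.3 to 87.7 CPM in all group means.

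As a description over the 9 libraries, which pairs share with their depth and scaling, the median Pearson correlation of transcript and host levels was 0.27 for 350 IT pairs. It was 0.26 for 959 pairs of the name class AS and 0.20 for 832 of the class OT. Signs of the log2 difference were the same in transcript and host for 227 of 350 IT pairs in mild drought and for 202 in severe drought, each against control, and for 219 between the drought levels. As shares these were 64.9%, 57.7% and 62.6%, beside 61.2%, 58.4% and 59.6% for AS pairs and 54.2%, 56.3% and 52.8% for OT pairs.

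**Figure D5:**
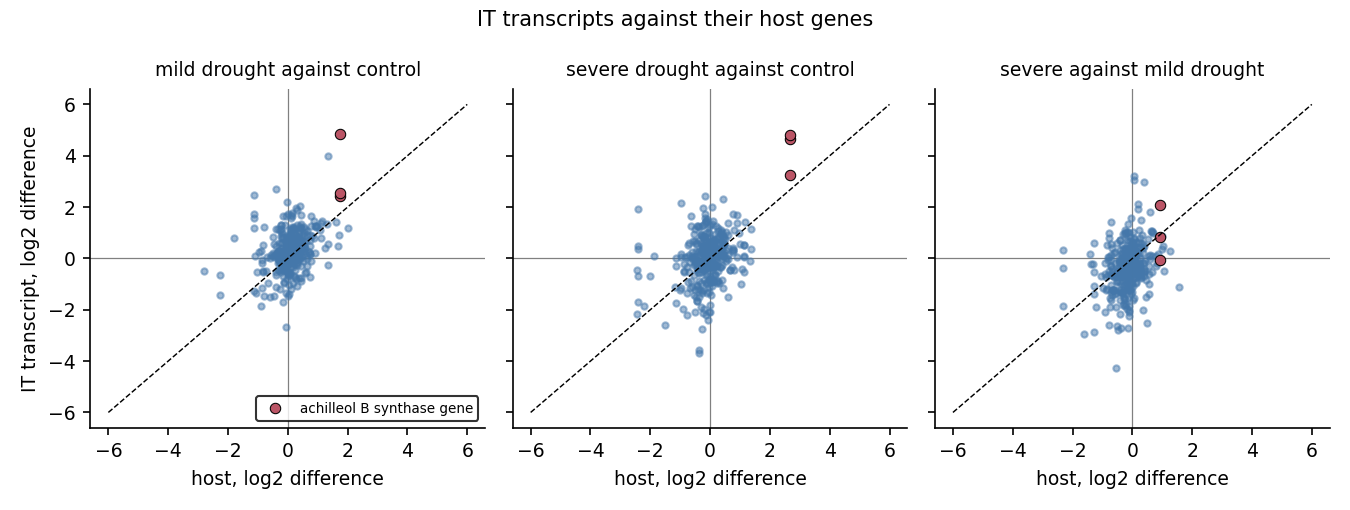
Log2 difference of the host after subtraction (x) and of the IT transcript (y) for 350 pairs in each comparison, with the dashed line at equal change and the transcripts of the achilleol B synthase gene in red. The achilleol B synthase transcripts lie in the upper right in both comparisons with the control, where their host is at 1.76 and 2.67.

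Some hosts carried many IT transcripts, and these did not share 1 level. In the 79 hosts with more than 1, the most abundant transcript held a median of 59.9% of the IT level. The MADS-box factor 27 gene and the GMI1 gene held 6 each. In GMI1 the other 5 transcripts averaged 0.064 to 0.533 CPM beside 13.9 CPM for IT1. In MADS-box factor 27 the 6 ranged from 0.142 to 1.25 CPM, and the host itself had 44, 57 and 10 counts in the control and 7, 5 and 3 in severe drought. OPAQUE1, a myosin known from maize endosperm, held 5 in a gene of 51305 bp (SORBI_3001G257800), with IT3 at 5.90 CPM and the others at 0.318 to 0.964 CPM. Anaphase-promoting complex subunit 1, of a ubiquitin ligase of the cell cycle, also held 5 (SORBI_3009G104900), at 0.302 to 1.05 CPM, as did SORBI_3002G158500, with ankyrin repeats, at 0.0487 to 0.663 CPM.

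By the protein names of the hosts, which 440 of 617 had, IT transcripts were found in genes of many functions. Protein kinase names were held by 31 hosts (5.02%, beside 4.64% of genes), transcription factor names by 24 (3.89% and 4.07%), and names of ubiquitin and proteolysis by 22 (3.57% and 3.26%). Names of chromatin and DNA repair were held by 25 (4.05% beside 1.44%), those of disease resistance and receptor-like proteins by 28 (4.54% beside 2.81%), and those of chloroplast and photosynthesis by 33 (5.35% beside 4.59%). The chromatin list took in every name with methyltransferase, such as TARBP1 and protein arginine methyltransferase 3, whatever its substrate. RNA processing had 14 (2.27% and 2.18%) and transporters and channels 20 (3.24% and 2.45%). EdgeR called 0 IT transcripts and 0 hosts of every list in all 3 comparisons.

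In mild drought against control the positive differences were 12 of 19 tested IT transcripts for kinases (median log2 0.27), 6 of 9 for transcription factors (1.17), 10 of 14 for ubiquitin and proteolysis (0.57) and 9 of 11 for RNA processing (0.50). They were 17 of 22 for chloroplast names (0.31), 10 of 13 for transporters (0.21), 10 of 16 for chromatin (0.30) and 12 of 17 for disease resistance (0.29). Each list median thus lay on the side of the whole class, whose median was 0.27. In severe drought against control the medians were between -0.22 (chloroplast names, 10 of 22 positive) and 0.36 (transcription factors, 7 of 9), and in severe against mild drought between -0.52 (transcription factors, 3 of 9) and -0.00 (kinases, 9 of 19). Among the most abundant of these lists, the serine/threonine-protein kinase CBK1 gene held a transcript of 3.57 CPM, the U3 ribonucleoprotein IMP4 gene, of ribosomal RNA maturation, 1 of 4.02 CPM, the chromatin remodeling protein EBS gene 1 of 3.34 CPM and the sodium/proton antiporter 1 gene 1 of 3.43 CPM.

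Drought-related names (abscisic acid, protein phosphatase 2C, dehydrin, proline or heat shock) were held by 5 hosts with 8 IT transcripts. These were 0.810% of hosts, beside 0.608% of genes. In the gene of probable protein phosphatase 2C 8, of the family that dampens abscisic acid signals (SORBI_3003G242200, chromosome 3, 58153721 to 58167558), IT transcripts held 70.0% of the gene-table counts. Its IT1 (58154882 to 58156490) had 11, 0 and 2 counts in the control, 40, 53 and 83 in mild drought and 5, 14 and 16 in severe drought. The mild drought libraries lay above all others, and the log2 difference to the control was 4.0 ± 1.19 (unadjusted p = 0.00807, edgeR adjusted p = 0.999). IT2 of that gene had 26, 5 and 15 counts in mild drought, 0, 2 and 0 in the control and none in severe drought. The other 2 transcripts of the gene did not share this pattern: IT3 had 7, 13 and 5 counts in the control, 6, 17 and 13 in mild drought and 5, 4 and 10 in severe drought, and IT4 had 18, 26 and 35, then 25, 35 and 7, then 25, 14 and 18. Their groups overlapped, with log2 differences of mild drought to control of 0.54 ± 0.86 and -0.26 ± 0.61. The host had 18, 42 and 0 counts in the control, 17, 78 and 61 in mild drought and 8, 0 and 14 in severe drought, which overlapped. Transcripts in the gene of protein phosphatase 2C 32 had 8 to 38 counts in every library without separation of the groups (SORBI_3001G358800-IT1, 0.383 ± 0.177, 0.540 ± 0.428 and 0.373 ± 0.0119 CPM).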

How the data were processed

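The authors deposited whole-number read counts per gene and per lncRNA transcript, and FPKM values per gene and per lncRNA transcript, in tables with 1 column per library, per the file headers. The submitters' processing notes name StringTie 1.3.3b, STAR and HISAT2 2.0.4; their roles and the genome build are not given in the sources used here. All 9 libraries were used, grouped by their labels.

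Members were chosen by transcript name. Members, host lists and naming rules were chosen with earlier results of these data known. Gene counts contain the counts of lncRNA transcripts of the same identifier (0 of 95985 lncRNA sums exceeded their gene row), which were subtracted from host rows. CPM used the gene-table total multiplied by TMM factors (0.805 to 1.22) from genes with lncRNA counts subtracted. Count tests were quasi-likelihood F tests (edgeR 4.0.16, R 4.3.3) on 1 fit of all 9 libraries, no covariate, filterByExpr defaults and Benjamini-Hochberg adjustment over all lncRNA transcripts (4903), genes (21908) or pairs (2150) tested, called at 0.05. The pair test used 18 columns, transcript and host of each library, with library as a block and the interaction of kind and water level. Between libraries of a group lncRNA transcripts had a common biological coefficient of variation of 0.864 and genes one of 0.507, so low counts and this spread set the precision. One value per library was compared by exact permutation tests (SciPy 1.17.1), two-sided. Alternatives were DESeq2 1.42.0, limma 3.58.1 on log2 ratios (pseudocount 0.5), other scalings, no filter, hosts as deposited, and leaving out libraries. Scripts were tested on simulated data.

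Transcripts were named by rule: the 12 with the highest mean CPM, in each comparison the 6 with the smallest p in each direction with a mean of at least 1 CPM and the 6 pairs with the smallest p, the 5 hosts with the most transcripts, and up to 3 transcripts per host list; not all of these are described. IT1 and IT4 of the achilleol B synthase gene, the delta-1-pyrroline-5-carboxylate synthase 1 transcript, both transcripts lower in every mild drought library and IT2 and IT3 of protein phosphatase 2C 8 were named after their values were seen. Reference gene names were not used, since their locus tags could not be matched.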

Additional observations from a re-analysis of the deposited data

How the results depend on the processing

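The counts of IT transcripts, hosts and pairs called by edgeR were 0 in all 3 comparisons, and they were 0 with DESeq2 size factors, without the filter, with lncRNA scaling, with hosts as deposited, with the replicate numbers as a block, without each library in turn (0 to 0) and without control 2 and mild drought 2; pairs were also 0 with limma. DESeq2 called 4, 7 and 3 hosts in mild and in severe drought against control and between the drought levels, and 2 IT transcripts in severe drought against control. No clear pairing by replicate number was seen, though 3 libraries per group give little means to detect it. Correlations of deviations between same-numbered libraries ran from -0.376 to 0.364 for genes and from -0.0998 to 0.1125 for lncRNA transcripts. Between differently numbered libraries they ran from -0.416 to 0.553 and from -0.161 to 0.101. The block left 0 calls. The 68 results followed through these alternatives were those with the smallest p and the 16 that DESeq2 called. None changed sign, which choosing them from these same libraries favours. The 16 were called in DESeq2 alone, as their choice required a DESeq2 call.

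Between severe and mild drought, the share of the gene table was -0.00151 percentage points without the most abundant transcript and -0.0109 without the 2 most abundant, and between severe drought and control -0.00182 without these 2. Counts per 100 host counts between severe and mild drought changed by -0.164 without these 2 and -0.113 by the median over pairs. Without each library in turn the share differed by -0.00235 to 0.125, 0.0885 to 0.202 and 0.0242 to 0.166 points in the same order of comparisons, and the counts per 100 host counts by -3.51 to 12.7, 14.5 to 29.9 and 9.95 to 27.3. In that order, the numbers of IT transcripts higher in every library, of 373, ran from 46 to 73, 23 to 53 and 15 to 27. Lower ones ran from 9 to 27, 41 to 56 and 38 to 63. Over all lncRNA transcripts the higher shares ran from 9.42% to 16.9%, 9.14% to 17.3% and 7.69% to 11.5%. The lower shares ran from 6.83% to 11.6%, 8.69% to 12.2% and 8.95% to 10.9%. Fewer libraries separate more easily. Without control 2 and mild drought 2 the numbers were 116, 51 and 18 higher and 23, 41 and 44 lower. As shares the higher ones were 31.1%, 13.7% and 4.83%, beside 27.6%, 17.3% and 7.69% of all. The lower ones were 6.17%, 10.992% and 11.8%, beside 11.8%, 8.69% and 10.9%. That alternative was added after the data were seen, as were lncRNA scaling of these numbers and leaving out the 2 most abundant. With lncRNA scaling 11 of 373 were lower in mild drought against control, beside 5.79% of all. Depth limits the rest: 373 of 734 members passed the filter on low counts in the main fit. Differences of the others were tested only in alternative fits. The edgeR fit without the filter took in all 734 and called 0.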
